A study of Homo sapiens with 3 samples.

Results

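The S100A genes and the genes of the epidermal differentiation complex lie side by side on the long arm of human chromosome 1. They were taken as the protein-coding genes in the 4 Mb that follow position 150 Mb of that chromosome whose symbols begin with S100A and a number, SPRR or LCE, or are FLG, FLG2, RPTN, TCHH, TCHHL1, HRNR, CRNN, IVL, LELP1 or KPRP. This gave 55 of the 20163 protein-coding genes in the annotation, of which 15 were S100A genes and 40 belonged to the epidermal differentiation complex. The 40 genes comprised 19 LCE genes, 11 SPRR genes, 7 genes of the fused S100 type (FLG, FLG2, RPTN, TCHH, TCHHL1, HRNR and CRNN) and 3 others (IVL, LELP1 and KPRP). The rule uses names and positions.

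The marks were mapped by chromatin immunoprecipitation and sequencing in untreated H2087 cells, an established human lung adenocarcinoma line grown in RPMI medium with serum. The 3 samples were 1 library for histone H3 acetylated at lysine 27 (H3K27ac), 1 library for histone H3 trimethylated at lysine 4 (H3K4me3) and 1 input library, which was not analysed here. Each mark had 1 library without a replicate, so no value has an error between samples and no test between groups of genes was made. Peaks are the intervals called enriched by the peak caller, and each carries a −log10 q, which grows with the strength of the call and was read only within the list of its own mark.

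S100 proteins are small calcium-binding proteins with a pair of EF-hands, which bind and modulate partner proteins such as annexins. The genes of the epidermal differentiation complex encode proteins that are cross-linked into the cornified envelope of keratinocytes late in their differentiation, or that bundle keratin in the skin and the hair follicle. H3K4me3 marks the starts of genes in use, and H3K27ac marks such starts and also active enhancers.

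The following stretches show the DNA before the starts of 7 members with and without the marks. Each is the 250 bases before the canonical start, which is the first base of the transcript that the annotation names as representative, read from hg19 chromosome 1 in the direction of transcription. Capitals mark a TATA box (TATAAA), an AP-1 word (TGANTCA, where N is any base) or a GC box (GGGCGG), each on either strand. S100A10 and S100A11 are shown as members with a CpG-rich start and both marks, S100A16 as a member with a CpG-poor start and both marks, S100A8 and S100A9 as S100A genes with neither mark, and IVL and SPRR2A as genes of the epidermal differentiation complex with and without H3K27ac.
S100A10 (chr1:151966336-151966585, minus strand): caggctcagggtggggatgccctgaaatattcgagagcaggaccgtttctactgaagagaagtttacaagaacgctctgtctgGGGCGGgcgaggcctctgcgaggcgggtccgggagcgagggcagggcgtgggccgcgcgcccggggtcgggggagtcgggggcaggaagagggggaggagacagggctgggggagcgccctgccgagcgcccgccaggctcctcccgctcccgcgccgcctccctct
S100A11 (chr1:152009481-152009730, minus strand): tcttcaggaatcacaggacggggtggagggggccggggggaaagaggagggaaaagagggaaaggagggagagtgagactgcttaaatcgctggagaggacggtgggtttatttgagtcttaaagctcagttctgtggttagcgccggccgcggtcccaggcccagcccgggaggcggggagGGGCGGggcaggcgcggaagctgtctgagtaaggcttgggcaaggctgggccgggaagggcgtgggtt
S100A16 (chr1:153585614-153585863, minus strand): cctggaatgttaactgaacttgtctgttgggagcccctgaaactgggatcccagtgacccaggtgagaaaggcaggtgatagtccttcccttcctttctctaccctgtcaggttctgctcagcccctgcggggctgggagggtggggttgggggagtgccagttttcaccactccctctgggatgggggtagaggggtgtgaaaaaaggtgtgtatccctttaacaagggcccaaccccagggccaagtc
S100A8 (chr1:153363550-153363799, minus strand): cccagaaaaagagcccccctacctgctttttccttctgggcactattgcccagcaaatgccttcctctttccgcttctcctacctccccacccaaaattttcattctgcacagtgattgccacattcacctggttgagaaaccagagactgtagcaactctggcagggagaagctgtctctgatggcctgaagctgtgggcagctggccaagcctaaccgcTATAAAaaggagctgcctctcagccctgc
S100A9 (chr1:153330080-153330329, plus strand): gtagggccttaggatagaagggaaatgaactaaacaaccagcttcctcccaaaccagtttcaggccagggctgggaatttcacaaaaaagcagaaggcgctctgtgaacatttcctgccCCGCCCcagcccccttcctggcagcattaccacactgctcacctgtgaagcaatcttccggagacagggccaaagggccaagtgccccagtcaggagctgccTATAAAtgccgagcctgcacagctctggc
IVL (chr1:152880772-152881021, plus strand): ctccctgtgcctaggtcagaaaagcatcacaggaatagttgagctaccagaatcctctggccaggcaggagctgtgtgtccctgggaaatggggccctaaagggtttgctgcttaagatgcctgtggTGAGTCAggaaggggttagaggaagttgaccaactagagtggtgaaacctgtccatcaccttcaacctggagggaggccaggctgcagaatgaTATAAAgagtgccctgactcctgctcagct
SPRR2A (chr1:153029989-153030238, minus strand): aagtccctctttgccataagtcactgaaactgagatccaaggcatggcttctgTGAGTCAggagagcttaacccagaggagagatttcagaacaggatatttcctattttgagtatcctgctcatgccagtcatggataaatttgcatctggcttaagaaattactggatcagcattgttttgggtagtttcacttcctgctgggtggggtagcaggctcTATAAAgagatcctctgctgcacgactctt

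In these stretches S100A10 held 24 CpG and S100A11 held 15, whereas IVL held 0, SPRR2A 1, S100A16 1, S100A8 2 and S100A9 4. The TATA word began 29 bases before the start of S100A8 and of S100A9, and 30 bases before the start of IVL and of SPRR2A. An AP-1 word began 123 bases before the start of IVL and 197 bases before that of SPRR2A. The GC box of S100A10 began 167 bases, that of S100A11 68 bases and that of S100A9 131 bases before the start, in S100A9 on the opposite strand.

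Within 5 kb of the gene, most S100A genes carried both marks and nearly all genes of the epidermal differentiation complex carried neither. A peak over the gene or within 5 kb of it was counted. The DNA searched thus grew with the length of the gene, and the LCE genes are only 270 to 2213 bp long. H3K27ac was found at 14 of the 55 members (25.5%), against 45.2% of all protein-coding genes. H3K4me3 was found at 13 members (23.6%), against 53.6% of all protein-coding genes, and both marks at 12 members (21.8%), against 37.3%. At 40 members there was no peak of either mark.

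Split by family, 11 of the 15 S100A genes had H3K27ac (73.3%), and the same 11 had H3K4me3. These were S100A1 to S100A6, S100A10, S100A11, S100A13, S100A14 and S100A16. The exceptions were S100A7, S100A8, S100A9 and S100A12. Of the 40 genes of the epidermal differentiation complex, 3 had H3K27ac (7.5%), namely IVL, SPRR5 and SPRR3, and 2 had H3K4me3 (5.0%), namely TCHH and IVL. No LCE gene of 19 had a peak of either mark. The other 84 protein-coding genes of the same 4 Mb had H3K27ac in 64.3% and H3K4me3 in 70.2% of cases, so the interval as a whole was not short of peaks. Neighbouring genes can share a peak: at least 2 members lay within 5 kb of 20 among the 42 H3K27ac peaks and of 8 among the 24 for H3K4me3.

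**Figure D1:**
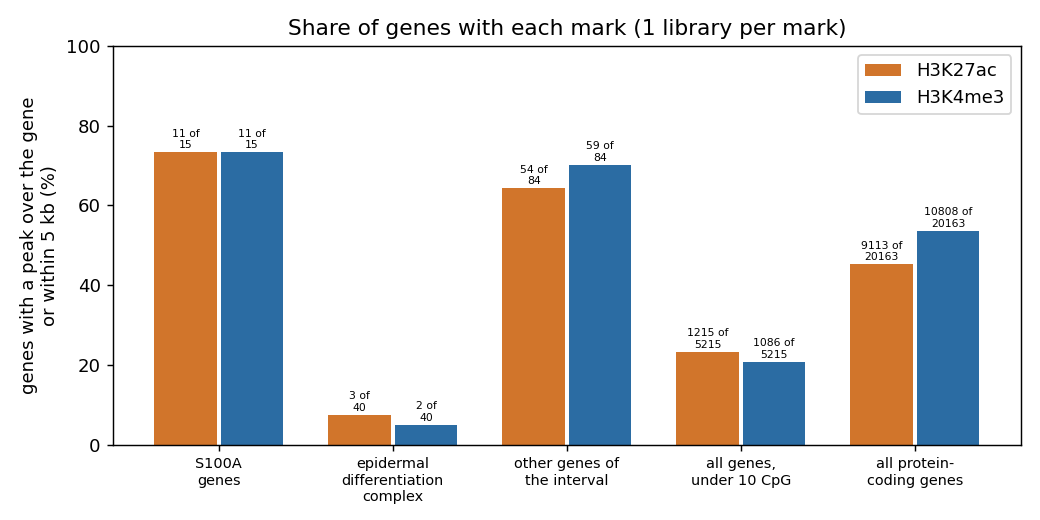
Share of genes (%) with an H3K27ac (orange) or H3K4me3 (blue) peak over the gene or within 5 kb, with the number of genes above each bar and 1 library per mark. The bars of the S100A genes stand at 73.3% for both marks, those of the epidermal differentiation complex at 7.5% and 5.0%, and those of all genes with fewer than 10 CpG at the start at 23.3% and 20.8%.

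A narrower window gave a lower share for the members. Within 1 kb of the canonical start, H3K27ac was found at 10 members (18.2%), against 25.2% of all protein-coding genes. H3K4me3 was found at 7 members (12.7%), against 41.3%. Of these, 9 and 7 were S100A genes, which is 60.0% and 46.7% of the 15. IVL was the 1 gene of the epidermal differentiation complex with H3K27ac in this window, and none of the 40 had H3K4me3 there. Over the gene alone, 7 of the 15 S100A genes (46.7%) had H3K4me3, against 46.4% of all protein-coding genes. In both narrower settings fewer S100A genes thus had H3K4me3 than within 5 kb, and their share was nearer that of all genes. Read depth is unknown from the peak lists, so at a start without a peak, absence of the mark cannot be told apart from a lack of reads, and fewer cells with a mark cannot be told apart from less of the mark in each cell.

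The marked members fell into 3 places along the cluster: the S100A10 and S100A11 pair at one end, IVL with its SPRR neighbours in the middle, and the 9 genes from S100A6 to S100A1 at the other end. TCHH stood alone with H3K4me3. The block from S100A6 to S100A1 (97.4 kb) held 27 H3K27ac peaks, which covered 13612 bases, and 11 H3K4me3 peaks, which covered 4904 bases. The block from S100A9 to S100A7, at 103 kb about as long, held no peak of either mark. The block from LCE5A to LCE7A (350 kb) likewise held none. From TCHHL1 to CRNN (330 kb) there were 3 H3K4me3 peaks and no H3K27ac peak.

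**Figure D2:**
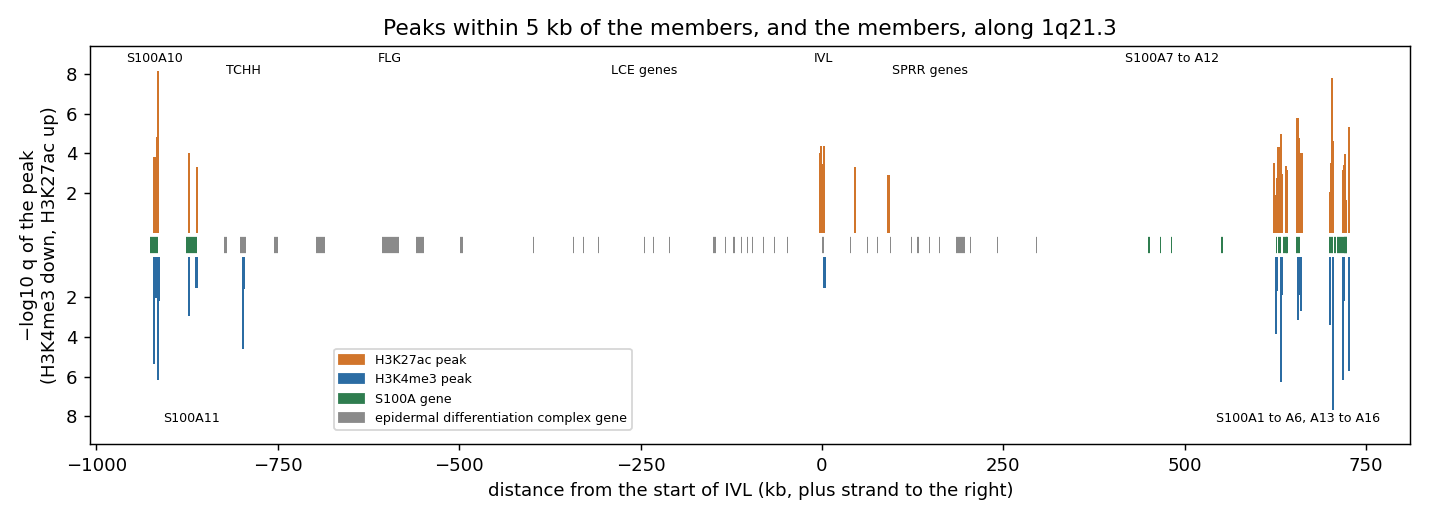
Peaks within 5 kb of the 55 members, placed by distance from the start of IVL (kb), with S100A genes in green and epidermal differentiation complex genes in grey. Bar height is the −log10 q of the peak (H3K27ac upward, H3K4me3 downward, each to be read within its own list) and bars are widened to 3 kb to be visible. Peaks stand at both ends, around IVL and, for H3K4me3 alone, at TCHH. The LCE genes and S100A7, S100A8, S100A9 and S100A12 have none.

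S100A10, which encodes the light chain of the annexin A2 complex, had the strongest H3K27ac peak of all members. It lay at chr1:151965845-151966315 over the untranslated first exon, 20 bases into the gene, with a −log10 q of 8.16, which was higher than 99.0% of the H3K27ac list. It lay inside the widest H3K4me3 peak near any member (chr1:151965472-151966604, 1133 bp, −log10 q 6.16), which spanned the start. The gene had 4 further H3K27ac peaks in its introns, with −log10 q from 1.83 to 4.82. A second H3K4me3 peak lay 504 bases before the start (354 bp, −log10 q 2.20), and an intronic one with a −log10 q of 5.36 lay 6102 bases into the gene. In that last peak most of the 32-base words occurred more than once in the genome.

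S100A11, a regulator of keratinocyte growth that is itself found in the cornified envelope, had narrow peaks over its first exon and intron. The H3K27ac peak at chr1:152009078-152009279 (202 bp, −log10 q 4.04) lay 201 bases into the gene, and the H3K4me3 peak at chr1:152009151-152009428 (278 bp, −log10 q 2.95) began 52 bases into it. These peaks covered 202 and 278 bases within 5 kb of the start, which placed S100A11 lowest in H3K27ac among the 11 marked S100A genes although its promoter was CpG-rich. A second cluster, of 1 H3K27ac and 2 H3K4me3 peaks, lay 9754 to 10359 bases before the canonical start in the intron of a longer transcript, with −log10 q values of 3.32, 1.54 and 1.52.

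The 4 genes from S100A6 to S100A3 shared 1 dense run of H3K27ac. Joined across gaps of up to 10 kb, the run held 12 H3K27ac peaks with 5914 bases under peaks in 17.6 kb, and it ranked 75 by those bases among 4606 joined regions with at least 2 peaks. It also overlapped 4 H3K4me3 peaks. S100A6 (calcyclin), a partner of the ubiquitin ligase adaptor CACYBP, had both marks in the first intron, with an H3K27ac peak at chr1:153508124-153508391 (−log10 q 2.22) and an H3K4me3 peak at chr1:153508182-153508404 (−log10 q 1.72). Both calls were weaker than the median of their lists, which was 2.65 and 2.97. The stronger peaks around S100A6 lay away from its start, among them an H3K27ac peak 1095 bases upstream (900 bp, −log10 q 4.32), over exon 3 of S100A5.

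S100A5, best known from olfactory neurons, had the widest H3K27ac peak near any member. This peak (chr1:153512852-153514091, 1240 bp, 3 summits, −log10 q 5.00) spanned the start, and the H3K4me3 peak under it was narrow but strong (chr1:153513145-153513347, 203 bp, −log10 q 6.25). The start of S100A5 held 1 CpG in 300 bases, so this was a marked start in CpG-poor DNA. S100A4, a gene linked to cell motility and metastasis, had no peak within 1 kb of its canonical start. Its nearest H3K27ac peak lay 1652 bases before the start and its nearest H3K4me3 peak 3346 bases past it, between S100A4 and S100A5. S100A3, known from the hair cuticle, had H3K27ac over its start (chr1:153521361-153521786, 426 bp, −log10 q 3.17) without H3K4me3 within 5 kb of the start. Its call for H3K4me3 rested on 1 weak peak beyond the end of the gene (182 bp, −log10 q 1.89).

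S100A2, an epithelial S100 gene known as a target of p53 family factors, had the most DNA under H3K27ac of all members. Its 7 H3K27ac peaks covered 4149 bases within 5 kb of the start, and 9 of the 20163 protein-coding genes had more. The run reached from the second exon to upstream of the gene. The strongest peak lay at chr1:153535991-153536779 (789 bp, −log10 q 5.77) over exon 2, and another over exon 1 was 1034 bp wide (chr1:153537223-153538256, −log10 q 4.76). The 4 H3K4me3 peaks covered 1366 bases, with −log10 q from 1.88 to 3.16. Hence the H3K4me3 calls at S100A2 were near or under the middle of their list, while 5 of the 7 H3K27ac calls were over the median of theirs.

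S100A16 and S100A14, adjacent epithelial S100 genes, had their peaks at S100A16. Over its untranslated first exon lay an H3K4me3 peak with 3 summits (chr1:153584512-153585533, 1022 bp, −log10 q 7.66, the strongest H3K4me3 call near any member) and an H3K27ac peak of nearly the same extent (chr1:153584513-153585478, 966 bp, −log10 q 4.65). The intron held an H3K27ac peak without H3K4me3 at chr1:153583118-153583480 with a −log10 q of 7.77, higher than 98.7% of its list. S100A14 had no peak over the gene itself. Its calls came from these peaks of S100A16, the nearest of which began 3268 bases past the S100A14 start. The central 300 bases of the intronic peak of S100A16, shown as the strongest H3K27ac call outside a gene start among the members, read as follows and held none of the 3 words.
S100A16 intronic H3K27ac peak (chr1:153583149-153583448, minus strand): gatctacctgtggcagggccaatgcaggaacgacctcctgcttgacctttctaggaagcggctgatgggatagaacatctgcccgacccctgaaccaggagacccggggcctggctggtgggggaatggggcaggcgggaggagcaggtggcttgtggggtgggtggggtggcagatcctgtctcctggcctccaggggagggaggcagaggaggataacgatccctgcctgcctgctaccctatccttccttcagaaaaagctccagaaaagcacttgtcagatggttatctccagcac

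S100A13 and S100A1 start back to back and were covered by 1 group of peaks. S100A13, which takes part in the export of growth factors that lack a signal peptide, had both marks in its first intron (H3K27ac at chr1:153599616-153599886, −log10 q 3.17, and H3K4me3 at chr1:153599665-153599855, −log10 q 2.20). A wide H3K4me3 peak followed from 516 bases into the gene (chr1:153598359-153599465, 1107 bp, −log10 q 6.15). S100A1, best known from heart muscle, had H3K27ac over its start (chr1:153600741-153601057, 317 bp, −log10 q 3.40), and its nearest H3K4me3 peak lay 1055 bases before it, at S100A13. Since their windows overlap almost fully, both genes had 1556 bases under H3K27ac and 1298 under H3K4me3 within 5 kb of the start.

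**Figure D3:**
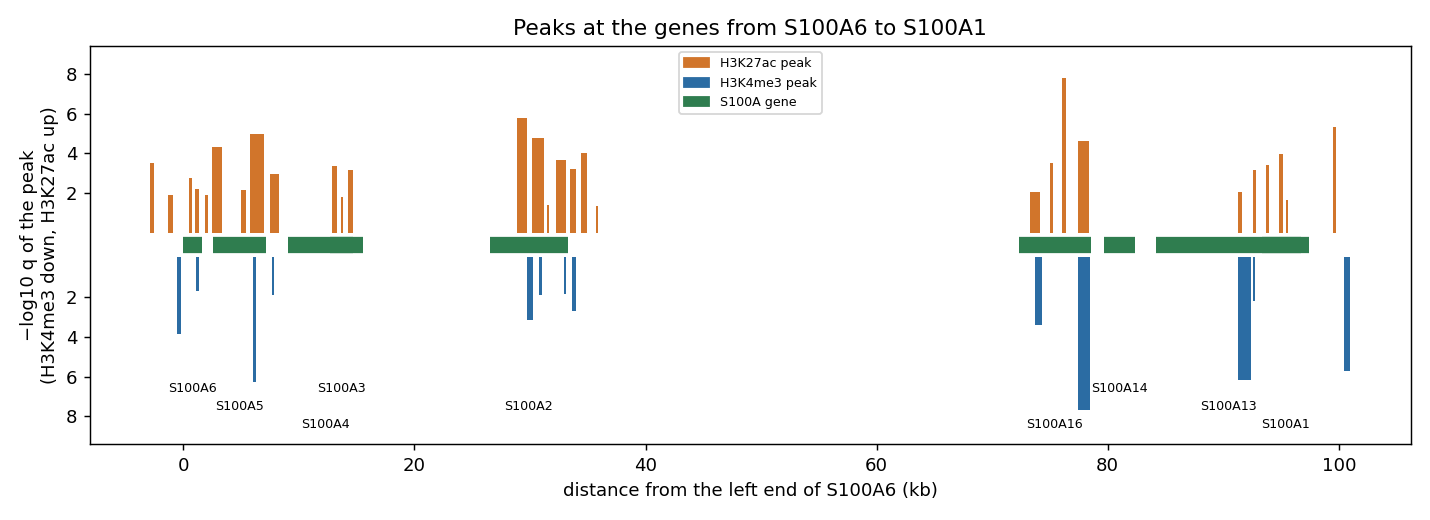
Peaks at the 9 genes from S100A6 to S100A1, drawn to scale as distance from the left end of S100A6 (kb), with bar height giving the −log10 q (H3K27ac orange and upward, H3K4me3 blue and downward) and genes in green. H3K27ac peaks form 4 runs, at S100A6 to S100A3, S100A2, S100A16 and S100A13 with S100A1, and the tallest H3K4me3 bar (7.66) stands at the start of S100A16.

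S100A7 (psoriasin), S100A8 and S100A9 (the subunits of calprotectin) and S100A12 (calgranulin C), genes expressed in inflamed skin or in myeloid cells, lay in a stretch of 259 kb without a peak of either mark (chr1:153244845-153504203). Their distance to the nearest H3K27ac peak was 71.1 to 118 kb (median 93.2) and to the nearest H3K4me3 peak 73.4 to 173 kb (median 150). All 4 had a TATA word within 50 bases before the start, and 2 of the 11 marked S100A genes did (S100A4 and S100A13). Their starts held a median of 2.5 CpG in 300 bases, and those of the marked S100A genes a median of 6.

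IVL, which encodes involucrin, an early scaffold of the cornified envelope, had 4 H3K27ac peaks, the most in the epidermal differentiation complex. Among them were a peak upstream of the gene at chr1:152877798-152878553 (756 bp) and peaks over its second exon at chr1:152881615-152882317 (703 bp, −log10 q 3.45) and chr1:152883224-152883781 (558 bp, −log10 q 4.39). The remaining peak, at chr1:152879809-152880036 (228 bp), ended 986 bases before the start and had the highest −log10 q of the 4 (4.40). All 4 peaks had a −log10 q above the list median. Together the 4 peaks covered 2245 bases in 5.98 kb, a joined region that ranked 539 of 4606, and 109 protein-coding genes had more H3K27ac within 5 kb of the start. None of the 4 overlapped H3K4me3. The 1 H3K4me3 peak called for IVL lay past the end of the gene (chr1:152884511-152884703, 193 bp) with a −log10 q of 1.55, and no H3K4me3 peak lay within 1 kb of the start.

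Among the SPRR genes, which encode small proline-rich cross-bridging proteins of the envelope, SPRR3 and SPRR5 each had 1 H3K27ac peak and neither had H3K4me3. The SPRR3 peak (chr1:152972616-152972849, 234 bp, −log10 q 2.91) ended 1376 bases before the start. The SPRR5 peak (chr1:152926013-152926523, 511 bp, −log10 q 3.30) lay 6331 bases past the start and outside the gene. The other 9 SPRR genes had no peak within 5 kb. The nearest case was SPRR2F, whose gene edge was 9.42 kb from an H3K27ac peak. The SPRR3 peak is shown as an H3K27ac site before the start of an epidermal differentiation complex gene, and it held no TATA, AP-1 or GC-box word.
SPRR3 upstream H3K27ac peak (chr1:152972616-152972849, plus strand): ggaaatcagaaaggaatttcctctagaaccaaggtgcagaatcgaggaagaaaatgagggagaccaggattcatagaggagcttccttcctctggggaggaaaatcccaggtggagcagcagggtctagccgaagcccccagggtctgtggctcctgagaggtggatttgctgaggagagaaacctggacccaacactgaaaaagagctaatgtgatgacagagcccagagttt

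TCHH, which encodes trichohyalin of the hair follicle, was the 1 gene of the fused S100 type with a peak, and it had H3K4me3 without H3K27ac. Its 3 H3K4me3 peaks lay in the coding part of exon 3, at chr1:152082661-152082979 (−log10 q 1.88), chr1:152083211-152083604 (−log10 q 4.60) and chr1:152083992-152084275 (−log10 q 1.60). The nearest began 3645 bases past the start, so the gene start itself was without a peak. FLG, FLG2, RPTN, HRNR, CRNN and TCHHL1, genes for large repeat proteins that include filaggrin and hornerin, had no peak.

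**Figure D4:**
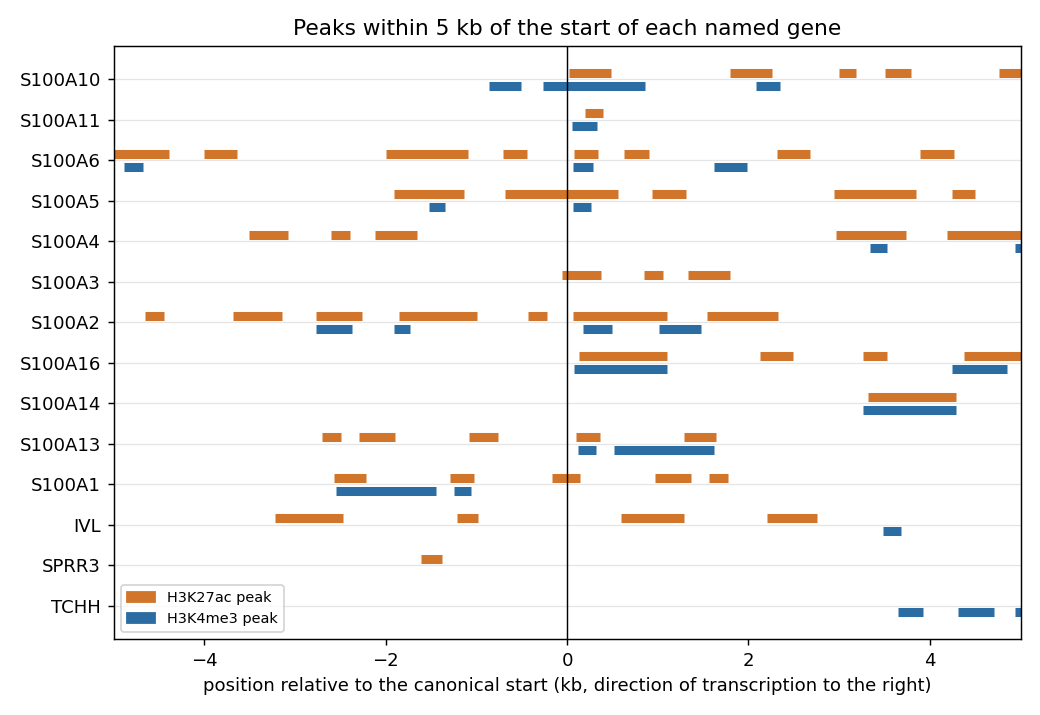
H3K27ac (orange) and H3K4me3 (blue) peaks within 5 kb of the canonical start of 14 members, by position in kb with transcription to the right. S100A10, S100A11, S100A6, S100A5, S100A2, S100A16 and S100A13 have both marks within 1 kb of the start, S100A3, S100A1 and IVL have H3K27ac alone there, and S100A4, S100A14, SPRR3 and TCHH have no peak there.

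From RPTN to LCE7A, 25 members lay in 1 stretch of 794 kb without a peak of either mark (chr1:152084276-152877797), bounded by the last TCHH peak and the first IVL peak. It held 28 protein-coding genes. Of 36721 such stretches in the genome, 643 were longer, but only 21 held more protein-coding genes. Further stretches of 123 kb and 149 kb around the SPRR2 genes held SPRR3, SPRR1B and SPRR2A, SPRR2B, SPRR2D, SPRR2E and SPRR2F in the first, and SPRR2G and LELP1 in the second. The 36 unmarked genes of the epidermal differentiation complex lay a median of 112 kb from the nearest H3K27ac peak (range 9.42 to 393) and 170 kb from the nearest H3K4me3 peak (21.1 to 399).

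Short reads from repeated DNA cannot be placed, and LCE, SPRR and filaggrin-type genes resemble each other. Within 1 kb of the start, the share of 32-base words that occurred once in the genome had a median of 96.8% in the 36 unmarked genes of the epidermal differentiation complex (62.0 to 100) and of 100% in the 11 marked S100A genes (79.4 to 100). The 4 S100A genes without a peak had a lower median of 92.5% (75.0 to 100) in the same window. Over the gene body the lowest values were 54.4% among LCE genes and 55.5% at HRNR, and the LCE median was 88.7%. Most of the DNA around the unmarked starts was therefore unique at this word length. How the authors' alignment treated reads with several matches is not given in the sources used here.

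The H3K27ac peaks near members were wider and had higher calls than their list as a whole. The 42 peaks had a median width of 367 bp (194 to 1240) against 284 bp for the 24096 peaks of the list, and a median −log10 q of 3.42 (1.36 to 8.16) against 2.65. The 24 H3K4me3 peaks had a median width of 301.5 bp (182 to 1133) against 305 bp for 18585 peaks, and a median −log10 q of 2.45 (1.52 to 7.66) against 2.97. An H3K4me3 peak overlapped 14 of the 42 H3K27ac peaks near members by at least 1 base, against 5787 of the 24096 in the list. Conversely, H3K27ac overlapped 15 of the 24 H3K4me3 peaks near members (62.5%), against 31.1% of that list. The S100A genes had a median of 1560 bases under H3K27ac within 5 kb of the start and 385 under H3K4me3, and over all protein-coding genes both medians were 0. Among genes above 0, the S100A medians were 1660 for H3K27ac (11 genes) and 1160 for H3K4me3 (10 genes), and those of all protein-coding genes were 423 and 553. Neighbouring S100A genes share peaks, so some bases enter the S100A medians more than once and the genes are not separate units. These lengths depend on the depth of each library, and neither difference was tested.

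Members with and without peaks within 5 kb were both found among the genes with a CpG-poor start. All 40 genes of the epidermal differentiation complex and 11 of the 15 S100A genes had fewer than 10 CpG in the 300 bases around the start (250 before and 50 after). S100A10 (32 CpG), S100A6 (31), S100A11 (22) and S100A13 (11) had more, and each of these had both marks within 1 kb of the start. Of all 5215 protein-coding genes with fewer than 10 CpG, 23.3% had H3K27ac and 20.8% had H3K4me3 within 5 kb, compared with 52.9% and 65.1% of the 14925 genes with 10 or more. Against this CpG-poor background, 7 of the 11 CpG-poor S100A genes had each mark within 5 kb (63.6%), and the epidermal differentiation complex stood at 7.5% and 5.0%. Within 1 kb of the start, 5 of those 11 S100A genes had H3K27ac (45.5%) and 3 had H3K4me3 (27.3%). The shares of all CpG-poor genes in that window were 5.77% and 5.08%, and those of the epidermal differentiation complex 2.5% and 0%. A part of CpG content in the marks was not tested.

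**Figure D5:**
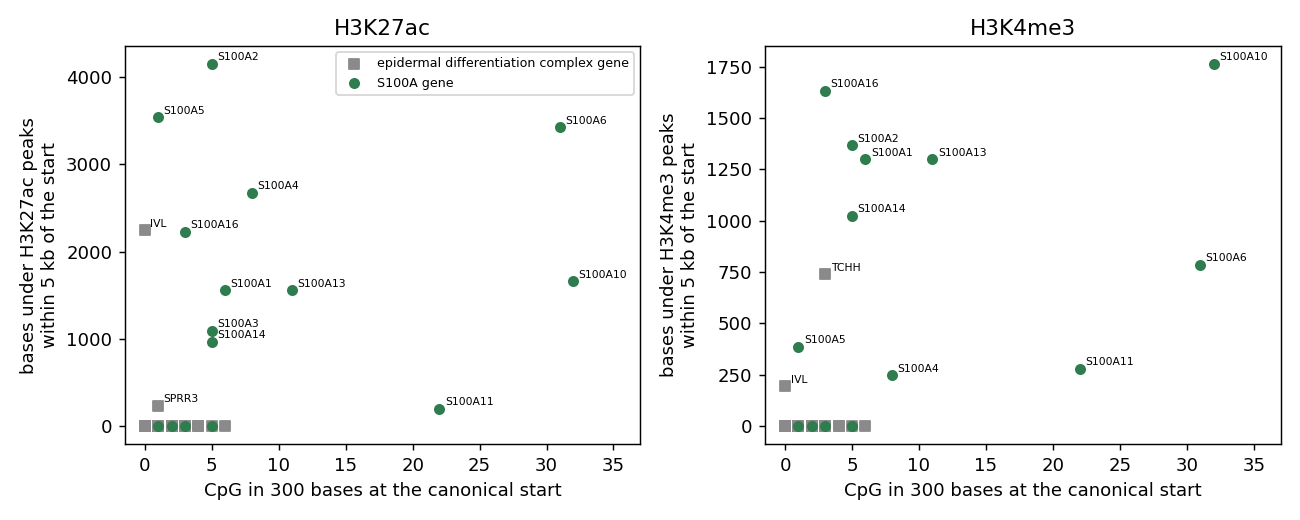
Bases under H3K27ac (left) and H3K4me3 (right) peaks within 5 kb of the canonical start against the CpG count of the 300 bases at the start, 1 point per member, with S100A genes as green circles and epidermal differentiation complex genes as grey squares. S100A2, S100A5, S100A16 and IVL have 2226 to 4149 bases under H3K27ac with 5 CpG or fewer, and S100A11 has 202 with 22 CpG.

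TATA and AP-1 words were common before many of these genes and differed between families. TATAAA within 50 bases before the start was found in 24 of the 40 genes of the epidermal differentiation complex (60.0%), in 10 of the 11 SPRR genes and in 7 of the 19 LCE genes, against 4.73% of 20140 protein-coding promoters. All 4 genes of the epidermal differentiation complex with a peak had it, as did the 4 S100A genes without a peak and 2 of the 11 S100A genes with one. The AP-1 word TGANTCA lay in the 300 bases of 8 of the 11 SPRR genes and of none of the 19 LCE genes, and in 16 of the 40 overall (40.0%), against 5.43% of promoters. It lay in 3 of the 4 genes of the complex with a peak. Among the S100A genes it lay in 3 of the 11 with a peak and in 1 of the 4 without. GGGCGG lay in 4 of the 11 marked S100A promoters and in 1 of the 40 of the epidermal differentiation complex, against 61.0% of promoters. In windows of 300 bases centred on the peaks, which reach past the edges of the narrower ones, the AP-1 word was found in 4 of the 42 H3K27ac peaks near members (9.52%), against 5.03% of the list, and in 0 of the 24 H3K4me3 peaks, against 3.74%. All words were searched on both strands. The 3 words do not contain each other, and each GGGCGG holds 1 CpG. A match describes the letters and not the binding of a factor.

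Related genes outside the cluster gave the setting. Of 4 S100 genes on other chromosomes, S100P, a gene of epithelial tumours, had both marks at the start (3 peaks each, highest −log10 q 3.55 for H3K27ac and 3.76 for H3K4me3). S100Z had 1 H3K27ac peak alone, S100B 1 H3K4me3 peak alone, and S100G had none. Of 7 further genes inside the cluster that the name rule leaves out, none had a peak, and these include LORICRIN, which encodes the main envelope protein, and S100A7A. Of 10 partners and receptors of S100 proteins, 8 had both marks within 5 kb, against 37.3% of all protein-coding genes. Within 1 kb of the canonical start, 5 of the 10 had H3K27ac and 7 had H3K4me3, against 25.2% and 41.3%. ANXA2, the annexin bound by S100A10, had 10 H3K27ac and 5 H3K4me3 peaks, and AHNAK, a scaffold of that complex, had 11 and 3. The 2 without a peak were ANXA1 and TLR4, named here after their values were seen.

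Among 19 cornified envelope and late keratinocyte genes on other chromosomes or far from the cluster, 4 had H3K27ac and 2 had H3K4me3, against 45.2% and 53.6% of all protein-coding genes. PPL and EVPL, which encode periplakin and envoplakin, had both marks at the start. TGM2, a transglutaminase of many tissues, had 12 H3K27ac peaks and no H3K4me3 peak, and CDSN had 4 and 0. Of 19 regulators of epidermal differentiation, 13 had H3K27ac and 18 had H3K4me3 within 5 kb, set against the same shares. Within 1 kb of the canonical start, 10 had H3K27ac and 13 had H3K4me3, against 25.2% and 41.3% of all protein-coding genes. FOSL1, an AP-1 subunit, had 7 H3K27ac and 10 H3K4me3 peaks, and GRHL2, a factor of epithelial junction genes, had 4 and 5. FOS, CEBPA and SATB1 had H3K4me3 at the start without H3K27ac within 5 kb.

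The labelled cell type was checked by peaks at marker genes. KRT7, KRT8, KRT18, KRT19, EPCAM, CDH1 and the lung factor NKX2-1 had both marks within 1 kb of the start, and KRT8 had 26 H3K27ac peaks. The alveolar genes NAPSA and SFTPB did not, with 1 H3K4me3 peak (−log10 q 1.55) at NAPSA and no peak at SFTPB. Of the keratinocyte markers, KRT5, KRT14 and DSG3 had no peak, and TP63 had 2 H3K27ac peaks and 1 H3K4me3 peak away from its canonical start. VIM and the blood marker PTPRC had none, and COL1A1 had 1 H3K27ac and 2 H3K4me3 peaks outside the 1 kb around the start.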

How the data were processed

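Histone H3K27ac and H3K4me3 were profiled in H2087 cells, with 1 library per mark. Per the labels and the methods, the authors aligned reads to hg19 with Bowtie 1.1.1 and called peaks with MACS2 2.1.0. Picard 1.118 is among the tools named in the submitters' processing notes, without its role, and per the methods the input was kept for normalization. The threshold, the handling of duplicates and whether the input was the control in peak calling are not given in the sources used here. The last column of the deposited lists has no header and was read from its values as −log10 q per summit. Its smallest values were 1.303 for H3K27ac and 1.306 for H3K4me3, just above 1.301, which is the −log10 of 0.05. Intervals listed once per summit (25275 and 20282 entries) were taken once, with the highest −log10 q, which left 24096 H3K27ac and 18585 H3K4me3 peaks. The depth of the libraries is unknown. Counts of peaks have no replicate error.

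Genes, transcripts and exons were taken from GENCODE 44 mapped to GRCh37, which is the hg19 build, and sequences from the GRCh37 primary assembly. Positions are 1-based. Peaks were joined across gaps of up to 10 kb for the joined regions, and 32-base words were counted on both strands of the assembly. Analyses used Python 3.11.15, pandas 2.3.3 and numpy 2.4.6, and the interval counts were tested on simulated data. Every S100A member and every other member with a peak was named. Among related genes other than cell type markers, at most 15 with a peak at the start or with 1 mark only were named, and not every such gene. S100G, LORICRIN, S100A7A, ANXA1 and TLR4 were named although they had no peak. The members and gene lists were chosen with earlier results of these data known. One listed neighbour, S100A7L2, was not found under that symbol in the annotation. Promoter windows without an unknown base were read for 20140 protein-coding genes. One sequence is not reported here.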

Additional observations from a re-analysis of the deposited data

How the results depend on the processing

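The 10 counts and lengths were recomputed under other settings, which gave 48 values, of which 30 stayed within 1.5 times the reported value and 18 did not. Counting peaks over the gene alone gave 8 members with H3K4me3, 7 with both marks, 7 S100A genes with H3K4me3, and 1 gene of the epidermal differentiation complex with H3K27ac and 1 with H3K4me3. Within 1 kb of the gene start, 7 members had H3K4me3, 7 had both marks, 7 S100A genes had H3K4me3, and 1 gene of the epidermal differentiation complex had H3K27ac and 0 had H3K4me3. The canonical start, a window added after the data had been examined, gave the same numbers: 7, 7, 7, 1 and 0. The genes were not all the same, because the outer start of a gene can lie away from its canonical start. S100A13 had both marks at the canonical start and neither at the outer start. S100A4 gained H3K27ac and S100A1 gained H3K4me3 at the outer start. S100A11 had both marks at the outer start through its second cluster of peaks, which lay in partly repeated DNA. These windows hold less DNA. When peaks below the median −log10 q of their list were left out, all 14 members kept H3K27ac, whereas S100A11, S100A3 and IVL lost H3K4me3, so 1 gene of the epidermal differentiation complex kept it, and 10 H3K4me3 peaks were left near members. Merging peaks within 1 kb of each other left 19 H3K27ac peaks. The longest stretch without a peak was 794 kb without the peaks below the median as well, and 858 kb for H3K27ac and 800 kb for H3K4me3 alone.

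No paired analysis was possible because a single library stood for each mark. The depth of the libraries is unknown, and its part in weak or missing calls was not tested.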
